A study of Mus musculus with 369 samples.

Results

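Apoe, Apoc1 and Apoc2 are neighbouring mouse genes on chromosome 7 that encode proteins of lipoprotein particles. They are 3 of the 23337 genes in the count table, taken by symbol, and their RNA was described in single microglia, the resident macrophages of the brain. In short, Apoe was among the 3 most counted genes in all 4 groups of cells and lay about 2.7-fold higher in cells with surface Gpnmb and Clec7a, in both genotypes. Apoc1 and Apoc2 had far lower levels, were found in a minority of unselected cells or in 0 of them, and differed more between the gates than Apoe did. In cells of the same gate, Apoe and Apoc1 differed by less than 2-fold between wild type and Trem2 knockout.

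Apolipoprotein E coats lipoprotein particles and is the ligand by which receptors on the cell surface take them up. In the brain it carries cholesterol between cells and is made mainly by astrocytes, and by microglia that have left the homeostatic state. Apolipoprotein C1 hampers the uptake of particles by those receptors and inhibits lipid transfer and lipase activity, whereas apolipoprotein C2 is the cofactor that lipoprotein lipase needs. In macrophages the genes of this cluster share distant enhancers that respond to the liver X receptors, nuclear receptors for oxidised cholesterol. Trem2, the gene deleted in the knockout, encodes a microglial receptor that can bind lipids and apolipoproteins, ApoE included.

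The cells came from whole brains of male mice on the C57BL/6J strain at postnatal day 7, either wild type or Trem2 knockout. The first sort gate took live cells that stained low for CD45 and positive for CD11b ("unselected" from here on). The other asked for Gpnmb and Clec7a protein on top of that ("gated"). Wells of a plate were sorted to hold 1 cell each, and RNA was amplified by Smart-seq2, which uses no molecular identifiers. In all, 334 cells passed the 3 quality criteria in the labels and 35 did not. The passing wild-type cells were 78 unselected and 90 gated, and the passing knockout cells were 90 unselected and 76 gated. The labels name no animal and give no design of the deleted allele, and each group lay on a plate of its own. Each group is therefore 1 sample, plate and group cannot be told apart, no difference between groups has a replicate check, and no p-value is given. The 95% intervals allow for counting error and nothing else, since reads amplified from 1 cell are not separate molecules.

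Gene counts per passing cell ran from 157653 to 1051282. The groups also differed in RNA content. Median detected genes were 2607.5, 3162.5, 2184 and 3995, and median gene counts per count of added spike-in RNA were 24.9, 39.8, 18.1 and 53.7. Here and in all lists of 4 values below, the wild-type values come first and the knockout values after them, each time with unselected before gated cells. Trem2 itself was at 1115, 1604, 229 and 413 CPM, counts scaled to a common total of gene counts, lower in the knockout cells but not absent. All 9 microglia markers were measured in each group, with summed levels of 46025, 32704, 46022 and 24695 CPM.

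In the mm10 (GRCm38) build with GENCODE M21 annotation, all 3 genes are protein-coding and lie on the minus strand of chromosome 7. Apoe (ENSMUSG00000002985.16) spans 19696109 to 19699188, and Apoc1 (ENSMUSG00000040564.14) spans 19689481 to 19692660, which leaves 3448 bases between them. Apoc2 (ENSMUSG00000002992.17) spans 19671579 to 19677941, downstream of the close relative Apoc4, and the stretch from Apoc2 to Apoe is 27610 bases long. The Apoc2 counts carry an uncertainty of their own. Another annotated gene, Gm44805, runs through Apoc4 and Apoc2, and only 167 of the 813 exonic bases of Apoc2 lie outside it. How the counting treated reads shared by these genes was not given in the sources used here.

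To show what the proximal promoters of the highest and the lowest of the 3 genes hold, the 250 bases before the start of Apoe and of Apoc2 are printed. They come from RefSeq on GRCm38.p6, read 5′ to 3′ on the minus strand, at chr7:19699189-19699438 for Apoe and chr7:19677942-19678191 for Apoc2. Apoc1 had no entry in the table of promoters. Capitals mark matches to any of 7 motifs searched on both strands. The motifs were AGGTCA (nuclear receptors), GAGGAA (the core bound by PU.1), TATAAA (the TATA box), GGGCGG (the GC box), CCAAT (the box of that name), CACGTG (the E-box of MiT/TFE factors) and TGANTCA (AP-1).
Apoe: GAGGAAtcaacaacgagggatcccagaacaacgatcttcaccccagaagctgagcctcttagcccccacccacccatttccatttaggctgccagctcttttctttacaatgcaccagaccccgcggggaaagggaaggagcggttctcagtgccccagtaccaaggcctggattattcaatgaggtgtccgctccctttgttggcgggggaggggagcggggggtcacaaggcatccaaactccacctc
Apoc2: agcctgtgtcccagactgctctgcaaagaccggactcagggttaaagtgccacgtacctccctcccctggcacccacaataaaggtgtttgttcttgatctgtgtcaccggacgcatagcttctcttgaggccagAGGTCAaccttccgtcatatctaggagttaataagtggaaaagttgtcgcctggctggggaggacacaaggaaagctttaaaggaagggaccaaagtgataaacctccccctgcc

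The Apoe window held 1 match, GAGGAA at 250 to 245 bases before the start, which 23.3% of 32851 promoter windows of the same length also hold. The Apoc2 window held 1 match, AGGTCA at 115 to 110 bases before the start, which 14.02% of those windows hold. The 2 windows shared none of the 7 motifs. A match is a description of the letters only, and the distant enhancers of the cluster lie outside these windows.

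Apoe, the particle ligand, was the second most counted gene in wild-type unselected, wild-type gated and knockout gated cells and the third in knockout unselected cells. In wild type its level from summed counts was 11090 CPM (interval 11057 to 11123) without the extra gate and 30471 CPM (30424 to 30517) with it. In knockout the unselected level was 11028 CPM (11001 to 11056) and the gated level 29891 CPM (29844 to 29939). Apoe alone thus took about 1.1% of all gene counts in unselected and about 3% in gated cells of either genotype.

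Relative to the mean, single cells showed a wide spread of Apoe in the unselected groups and a narrow one in the gated groups. In CPM, the standard deviation over cells was 11568, 14674, 10495 and 15063, larger in gated cells. Wild-type unselected cells ran from 0 to 66088 CPM with a median of 8747, and knockout unselected cells from 0 to 54477 CPM with a median of 6824. Wild-type gated cells ran from 1210 to 71197 CPM with a median of 28406, and knockout gated cells from 7522 to 103678 CPM with a median of 27810. The ranges overlapped in each genotype, but the bulk of the cells did not lie at the same level. Of the unselected cells, 12 of 78 wild-type and 16 of 90 knockout cells were under 1000 CPM, against 0 gated cells in either genotype. Above 10000 CPM lay 44.9% of wild-type unselected and 36.7% of knockout unselected cells, against 93.3% and 98.7% of the gated cells.

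The coefficient of variation of Apoe over cells was 1.01 in wild-type unselected and 1.02 in knockout unselected cells. In each of these groups 0 of the 50 genes of nearest mean level varied more, and their median coefficients were 0.573 and 0.627. In gated cells the coefficient was 0.473 in wild type and 0.479 in knockout. There, 24 and 11 of the 50 genes nearest in level varied more than Apoe, with medians of 0.457 and 0.360. Few genes reach the level of Apoe, so these sets of 50 were not closely matched to it. Their mean levels ran from 1291 to 10556, 1419 to 166834, 1328 to 11169 and 1418 to 153148 CPM in the 4 groups. The mean of Apoe per cell was 11456, 31042, 10260 and 31458 CPM.

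Apoe was without any count in 5 cells, 2 of wild-type unselected and 3 of knockout unselected. These cells had 180850 to 1051282 gene counts and 7 to 9 of the 9 microglia markers. After each cell was thinned at random to 100000 gene counts, Apoe remained in 74 of 78 unselected cells of wild type (94.9%), in 84 of 90 of knockout (93.3%), and in all 90 and 76 gated cells.

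Apoc1, the inhibitor of particle uptake, had wild-type levels of 9.65 CPM (8.70 to 10.7) unselected and 71.7 CPM (69.4 to 73.97) gated. The knockout levels were 8.05 CPM (7.33 to 8.82) unselected and 71.4 CPM (69.1 to 73.8) gated. Cells with Apoc1 were few in the unselected groups and the majority in the gated groups. In thinned cells it was detected in 11 of 78 wild-type unselected (14.1%, 7.26 to 23.8) and 51 of 90 wild-type gated cells (56.7%, 45.8 to 67.1). In knockout it was detected in 10 of 90 unselected (11.11%, 5.46 to 19.5) and 50 of 76 gated cells (65.8%, 54.01 to 76.3).

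Levels of Apoc1 in single cells ran from 0 to 304 CPM (median 0) in wild-type unselected and from 0 to 632 CPM (median 17.3) in wild-type gated cells. They ran from 0 to 169 CPM (median 0) in knockout unselected and from 0 to 900.4 CPM (median 20.7) in knockout gated cells. A few cells held much of the signal outside the gate. The single cell with most Apoc1 counts held 32.7% of them in wild-type unselected and 29.5% in knockout unselected cells, against 8.62% and 12.9% in the gated groups. Without thinning, the share of cells with Apoc1 was 28.2%, 57.8%, 16.7% and 75%. Of the 22 wild-type unselected cells with Apoc1 counts before thinning, 15 had only 1 to 3 counts. Whether those came from the cell or from another library was not tested. With at least 10 thinned counts required, Apoc1 was found in 2, 23, 2 and 15 cells.

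Apoc2, the lipase cofactor, was the lowest of the 3. Wild-type cells had 1.41 CPM (1.06 to 1.84) unselected and 17.5 CPM (16.4 to 18.7) gated. In knockout it had 0 counts in unselected cells, where a floor of 3 counts over the group is 0.0527 CPM, and 18.2 CPM (17.1 to 19.5) in gated cells. Thinned cells with Apoc2 numbered 3 of 78 (3.85%, 0.8003 to 10.8), 13 of 90 (14.4%, 7.92 to 23.4), 0 of 90 and 27 of 76 (35.5%, 24.9 to 47.3). With 3 cells as the limit that a count of 0 sets, 0 of 90 cells allows a share of up to 3.33%. With at least 10 thinned counts required, Apoc2 was found in 1, 7, 0 and 6 cells, which is 7.78% of wild-type gated and 7.89% of knockout gated cells.

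The wild-type unselected signal of Apoc2 rested on 1 cell, which held 87.3% of its 55 counts. The 5 other cells of that group with Apoc2 had 1 to 3 counts each. The highest cells reached 119, 341, 0 and 199.8 CPM, and the median cell was at 0 in each group. At 1 or more thinned counts Apoc2 was found in a larger share of knockout gated than of wild-type gated cells, and at 10 or more in about the same share. The highest single cell was a wild-type gated one, and the levels from summed counts of the gated groups were close.

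**Figure D1:**
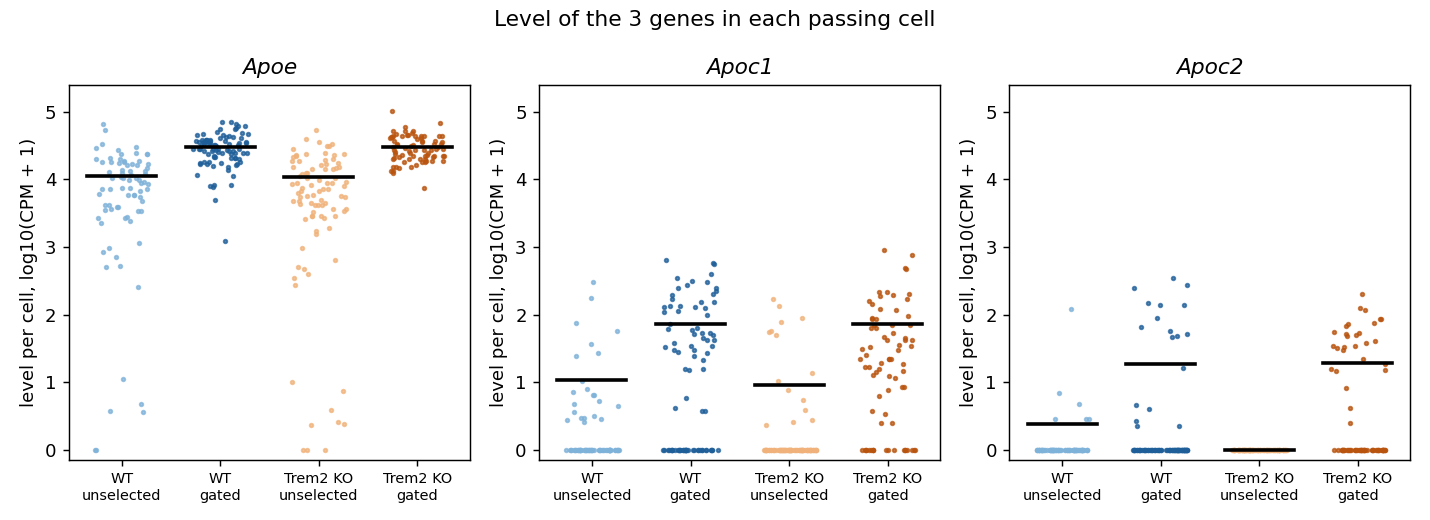
Level of Apoe, Apoc1 and Apoc2 in each passing cell, as log10(CPM + 1), in the 4 groups, each point 1 cell and each black bar the summed-count level of a group. Apoe forms a narrow band in gated cells and trails down to 0 in unselected cells, and Apoc2 is at 0 in all 90 knockout unselected cells.

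The first comparison asked how gated and unselected cells of wild-type brains differed in the 3 genes. All 3 were higher in gated cells. Apoe was 2.75-fold higher (2.74 to 2.76; log2 of CPM + 1 higher by 1.46), Apoc1 7.43-fold higher (6.68 to 8.28; log2 2.77) and Apoc2 12.4-fold higher (9.45 to 16.6; log2 2.94). A gated cell had more Apoe than an unselected cell in 87.9% of all pairs of cells, and 84 of 90 gated cells lay above the unselected median. All 3 of the genes were at least 2-fold apart, a size reached by 35.1% of the 10554 genes with at least 5 CPM in any group, so the count alone does not set the genes apart from the rest. Apoc2 reached 5 CPM in the gated groups alone, so it is a measured gene only through groups where it is high. Apoc2 also depended on single cells: without the highest cell of each group its log2 difference was 3.67, and by the median cell it was 0.

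The same comparison in knockout brains gave the same order of sizes. Apoe was 2.71-fold higher in gated cells (2.70 to 2.72; log2 1.44) and Apoc1 was 8.87-fold higher (8.05 to 9.80; log2 3.00). Apoc2 had 0 counts in the unselected group, and against a floor of 3 counts over that group it was at least 346-fold higher. Of all pairs of cells, 90.2% had the higher Apoe in the gated cell, and all 76 gated cells lay above the unselected median. Of the unselected cells, 49 of 90 lay below the lowest gated cell. All 3 genes were at least 2-fold apart, against 34.4% of the 10554 measured genes, with Apoc2 again measured only through the gated groups.

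Scaling and the number of detected genes moved the sizes of the gate differences but not their direction. Scaled on spike-in RNA, the Apoe difference was 1.93 in wild type and 2.77 in knockout on the log2 scale, as gated cells had more gene counts per spike-in count. The median of all measured genes moved with it, from -0.12 to 0.29 in wild type and from -0.26 to 0.99 in knockout. Relative to that median, Apoe was higher by 1.58 to 1.63 in wild type and by 1.70 to 1.79 in knockout over 4 scalings. Among cells matched on detected genes (60 and 31 per group), the Apoc1 difference was 2.01 in wild type and 2.13 in knockout. Apoc2 in wild type then differed by 2.39.

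The gate differences of the 2 genotypes lay close together for Apoe and Apoc1. The knockout difference minus the wild-type difference was -0.02 for Apoe and 0.23 for Apoc1 on the log2 scale. It was 1.33 for Apoc2, which follows from the 0 counts in knockout unselected cells against 55 in wild-type unselected cells. None of these could be tested with 1 plate per group.

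The comparison of genotypes among unselected cells asked whether loss of Trem2 came with other levels of the cluster. Apoe differed by a log2 of -0.01, a ratio of knockout to wild type of 0.994 (0.991 to 0.998), and the median cell was at 6824 against 8747 CPM. A knockout cell had the higher Apoe in 46.2% of pairs. Apoc1 was at a ratio of 0.834 (0.726 to 0.959; log2 -0.23), a difference that had the other sign (log2 0.16) in cells matched on detected genes. Apoc2 had 0 against 55 counts, 87.3% of them in 1 wild-type cell, for a log2 of -1.27. That was the 1 of 3 genes at least 2-fold apart, where 29.9% of all measured genes were, and the count was 0 without the highest cell of each group.

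Among gated cells, 0 of 3 genes were at least 2-fold apart by genotype, against 23.5% of the measured genes. The ratio of knockout to wild type was 0.981 (0.979 to 0.983) for Apoe, 0.997 (0.952 to 1.04) for Apoc1 and 1.04 (0.951 to 1.14) for Apoc2. A knockout cell had the higher Apoe in 49.7% of pairs. The counting intervals of Apoc1 and Apoc2 span a ratio of 1, and they do not cover the sampling of cells, animals or plates.

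In order of its level from summed counts, Apoe ran from wild-type gated through knockout gated and wild-type unselected to knockout unselected cells. The middle 50% of cells covered 20612 to 38247, 20765 to 41378, 3490 to 17187 and 2887 to 15084 CPM in that order. The 2 gated groups overlapped almost whole, as did the 2 unselected groups, while the middle ranges of gated and unselected cells did not meet. Per kilobase of annotated exon, Apoe was at 5187, 14252, 5158 and 13981 CPM. Apoc1 was at 13.0, 96.3, 10.8 and 96.0 CPM per kilobase, and Apoc2 at 1.74, 21.5, 0 and 22.4. The ratio of Apoe to Apoc1 on that scale was 400.0, 148, 477 and 146. The small genes of the cluster thus made up a larger part of its RNA in gated cells.

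Of 10 neighbours listed at the locus, 7 were measured. Of these, Apoc4 was at least 2-fold higher with the gate in both genotypes, as the 3 genes were, and the other 6 were not. Apoc4 reached 5 CPM in knockout gated cells alone, and so was measured only through a group where it is high. Apoc4, the relative between Apoc1 and Apoc2, had 0 counts in both unselected groups, 2.102 CPM (1.73 to 2.53) in wild-type gated and 8.71 CPM (7.92 to 9.57) in knockout gated cells, where 1 cell held 38.4% of its counts. Against the same floor of 3 counts over the group, Apoc4 was at least 27.3-fold higher with the gate in wild type and at least 165-fold in knockout. Apoc4 too shares exonic bases with Gm44805. Tomm40, which encodes the import pore of mitochondria and lies upstream of Apoe, was at 74.2, 97.9, 84.6 and 65.1 CPM. Clptm1, a membrane protein gene beyond Apoc2, was at 313, 348, 470.5 and 282 CPM, and Pvrl2, the adhesion receptor nectin-2, was at 60.04, 48.1, 59.05 and 34.8 CPM.

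Further out, Gemin7, which serves the assembly of spliceosome particles, was at 45.8, 41.6, 58.4 and 62.3 CPM. Relb and Bcl3 belong to the NF-kappaB system. Relb was at 13.6, 11.96, 18.3 and 1.72 CPM and Bcl3 at 0.026, 0.30, 1.72 and 6.12 CPM. At least 2-fold higher in gated cells were 1 of 7 neighbours in wild type (Apoc4) and 2 of 7 in knockout (Apoc4 and Bcl3). Lower were 0 and 1 (Relb). Apoc4 and Bcl3 reached 5 CPM in knockout gated cells alone, so the rule for measured genes favoured their count there. Of all 10554 measured genes, 15.2% were at least 2-fold higher and 19.9% lower in wild-type gated cells, and 12.4% and 22% in knockout gated cells. With 7 genes, these counts do not set the neighbours apart from all genes. Their median log2 difference was 0.15 and -0.37, beside medians of -0.12 and -0.26 for all measured genes.

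**Figure D2:**
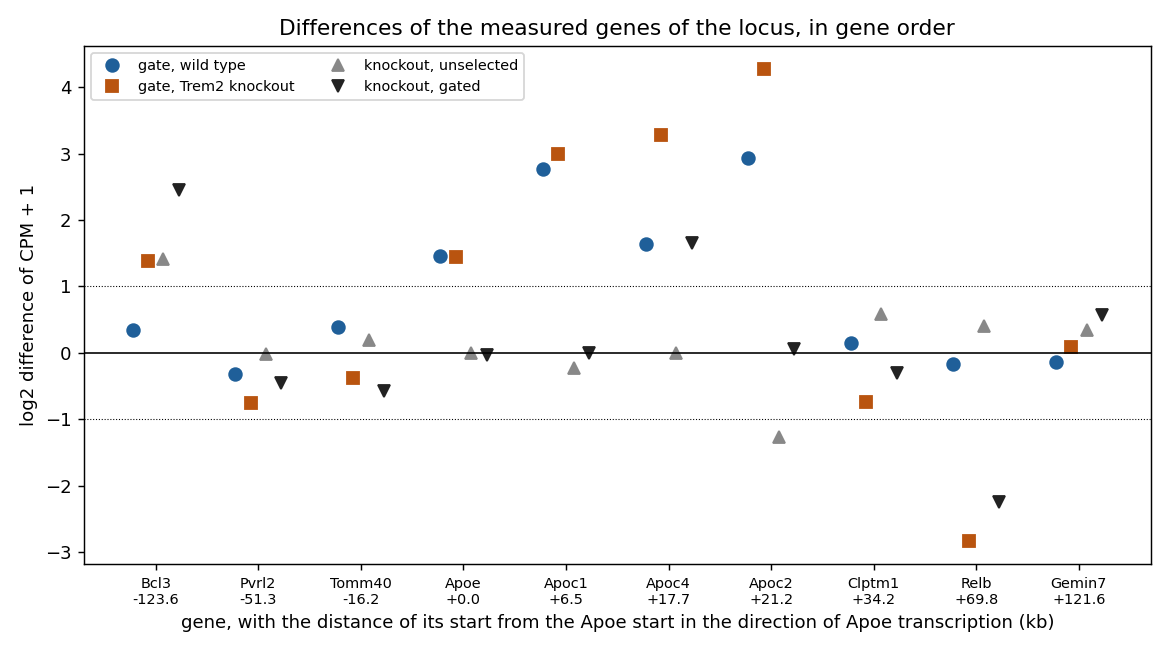
Log2 difference of CPM + 1 for the 10 measured genes of the locus, in gene order, for the gate in each genotype (circles, squares) and the genotype in each gate (triangles); dotted lines mark 2-fold, and distances run from the Apoe start. The gate differences of Apoe, Apoc1, Apoc4 and Apoc2 lie at 1.44 to 4.27, and Tomm40 and Clptm1 on either side lie within 2-fold.

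Co-detection was read in thinned cells. Every cell with Apoc1 or Apoc2 also had Apoe, which was close to given, since 94.0% of wild-type unselected and 92.5% of knockout unselected cells without Apoc1 had Apoe as well. Of the wild-type unselected cells 4 had none of the 3 RNAs, 62 had Apoe alone, 9 had Apoe and Apoc1, 1 had Apoe and Apoc2, and 2 had all 3. Of the knockout unselected cells 6 had none, 74 had Apoe alone and 10 had Apoe and Apoc1. The wild-type gated cells split into 34 with Apoe alone, 43 with Apoe and Apoc1, 5 with Apoe and Apoc2, and 8 with all 3. The knockout gated cells split into 17, 32, 9 and 18. At this cutoff of 1 count, Apoe with Apoc1 was the most frequent combination in both gated groups. At 10 or more thinned counts it was Apoe alone, in 62 of 90 wild-type and 56 of 76 knockout gated cells, against 21 and 14 with Apoe and Apoc1.

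Apoc1 and Apoc2 were found together about as often as their separate shares give. In wild-type gated cells, Apoc1 was present in 8 of 13 cells with Apoc2 (61.5%, 31.6 to 86.1) and in 43 of 77 without it (55.8%, 44.1 to 67.2). In knockout gated cells it was present in 18 of 27 with Apoc2 (66.7%, 46.04 to 83.5) and in 32 of 49 without it (65.3%, 50.4 to 78.3). Both pairs of intervals overlap widely, so no joint presence beyond the shares was detectable with these numbers of cells. In wild-type unselected cells the counts were 2 of 3 against 9 of 75, too few to read.

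**Figure D3:**
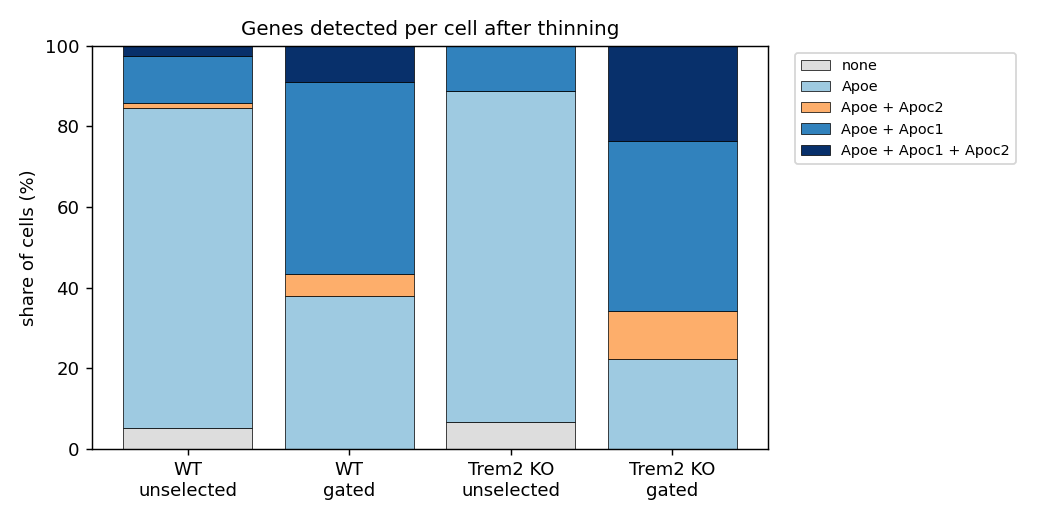
Share of thinned cells (%) in each group by which of the 3 RNAs had at least 1 count. Apoe alone fills 79.5% and 82.2% of unselected cells, and cells with Apoc1, with or without Apoc2, fill 56.7% and 65.8% of gated cells.

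In passing cells of each plate, Apoe and Apoc1 had a positive coefficient. Spearman's coefficient over thinned cells was 0.34 (n = 78 cells), 0.26 (n = 90), 0.44 (n = 90) and 0.23 (n = 76). The cells of a plate share its depth range and any plate effect, so these values describe the plates and carry no p-value. Among all genes detected in at least 25% of the cells of a plate, the median coefficient with Apoe was -0.01, -0.03, 0.04 and -0.10, and Apoc1 lay at percentiles 99.1, 98.7, 99.5 and 98.6 of them. With the number of detected genes taken out by rank, the values were 0.34, 0.28, 0.41 and 0.31. Without cells that carried at least 3 of 10 markers of border-associated macrophages, described further on, they were 0.36, 0.31, 0.41 and -0.09, so the sign in the knockout gated plate turned, at percentile 55.5 of the genes there. Apoc1 is absent from most unselected cells, so there the coefficient mainly reports where 11 and 10 cells stand among the rest.

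Apoe and Apoc2 gave 0.21, 0.10 and 0.05 in the 3 groups with Apoc2, and Apoc1 and Apoc2 gave 0.33, 0.04 and 0.10. With so few cells carrying Apoc2, weak values of this kind are no finding. In the knockout gated plate Apoe itself ran against RNA content, with a coefficient of -0.42 with detected genes and -0.48 with counts per spike-in count. In the other plates those coefficients were 0.04, -0.11 and 0.20 with detected genes and 0.07, -0.02 and 0.22 with counts per spike-in count.

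**Figure D4:**
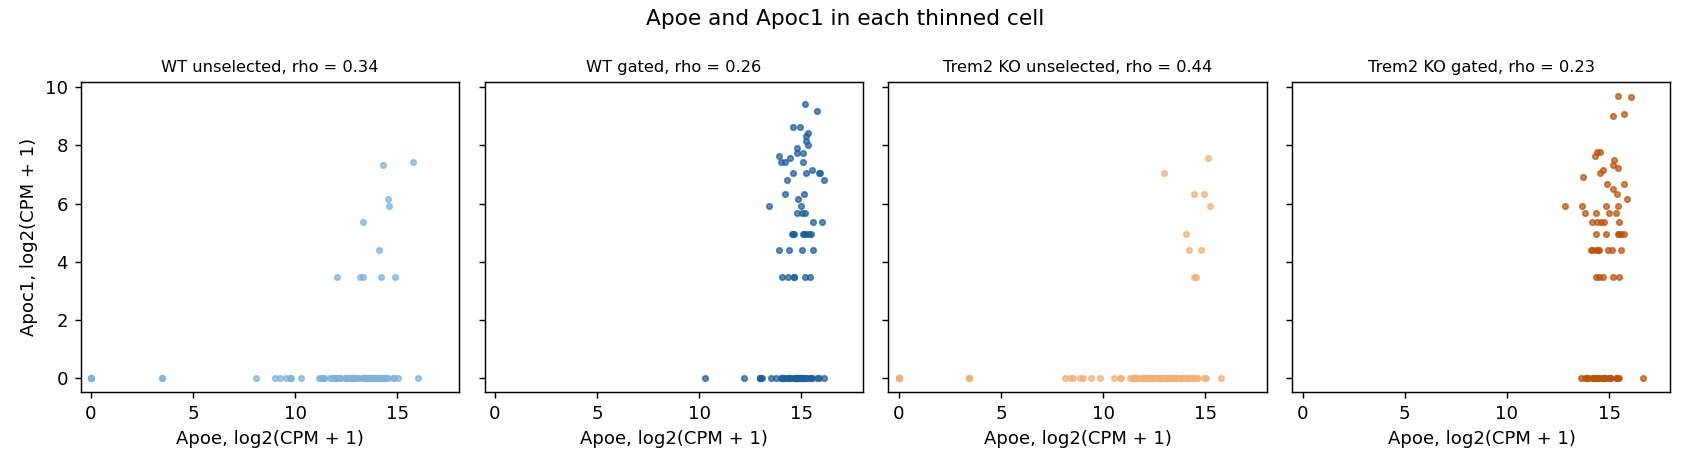
Apoe against Apoc1 in each thinned cell of the 4 plates, as log2(CPM + 1) on both axes, with Spearman's rho in the panel titles. Of the cells with Apoc1, 10 of 11, 30 of 51, 10 of 10 and 27 of 50 lie above the Apoe median of their plate, and the coefficients are 0.34, 0.26, 0.44 and 0.23.

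The genes most like each member were ranked by the mean of the within-plate coefficients among 2574 genes (2575 for Apoc1 and Apoc2) detected in at least 25% of the cells of each plate. For Apoe they were Sepp1 (0.58), Lyz2 (0.49), Ctsa (0.46), Abcg1 (0.45) and Ctsb (0.42), beside a median of -0.02. Sepp1 encodes selenoprotein P, a secreted selenium carrier, and its coefficient was 0.51, 0.57, 0.52 and 0.72 in the 4 plates. Lyz2 encodes lysozyme, Ctsa and Ctsb encode lysosomal proteases, and Abcg1 encodes an exporter of cholesterol. For Apoc1 the first of 2575 genes was Apoe (0.32), followed by Abcg1 (0.28), Gpx3 (0.28), Sepp1 (0.26) and Ccpg1 (0.25), beside a median of 0.04. Apoe did not stand as high for Apoc1 in every setting. In unthinned cells it lay at percentiles 80.5, 98.97, 99.86 and 87.6 of the genes of each plate. After cells with border-associated macrophage markers were left out, Apoe lay at percentiles 99.3, 98.7, 99.9 and 27.02 for Apoc1. Gpx3 is a secreted glutathione peroxidase and Ccpg1 a receptor for autophagy of the endoplasmic reticulum.

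For Apoc2, over the 3 plates that have it, the first 5 were Atp5l (0.28), Mif (0.25), Ftl1 (0.25), Abcd2 (0.24) and Tyrobp (0.24). They encode a subunit of ATP synthase, a cytokine, the light chain of ferritin, a peroxisomal transporter and the adaptor of Trem2. Apoe stood at rank 303 for Apoc2. Sepp1, first for Apoe, also differed by gate, at 5189, 12427, 6076 and 14069 CPM.

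**Figure D5:**
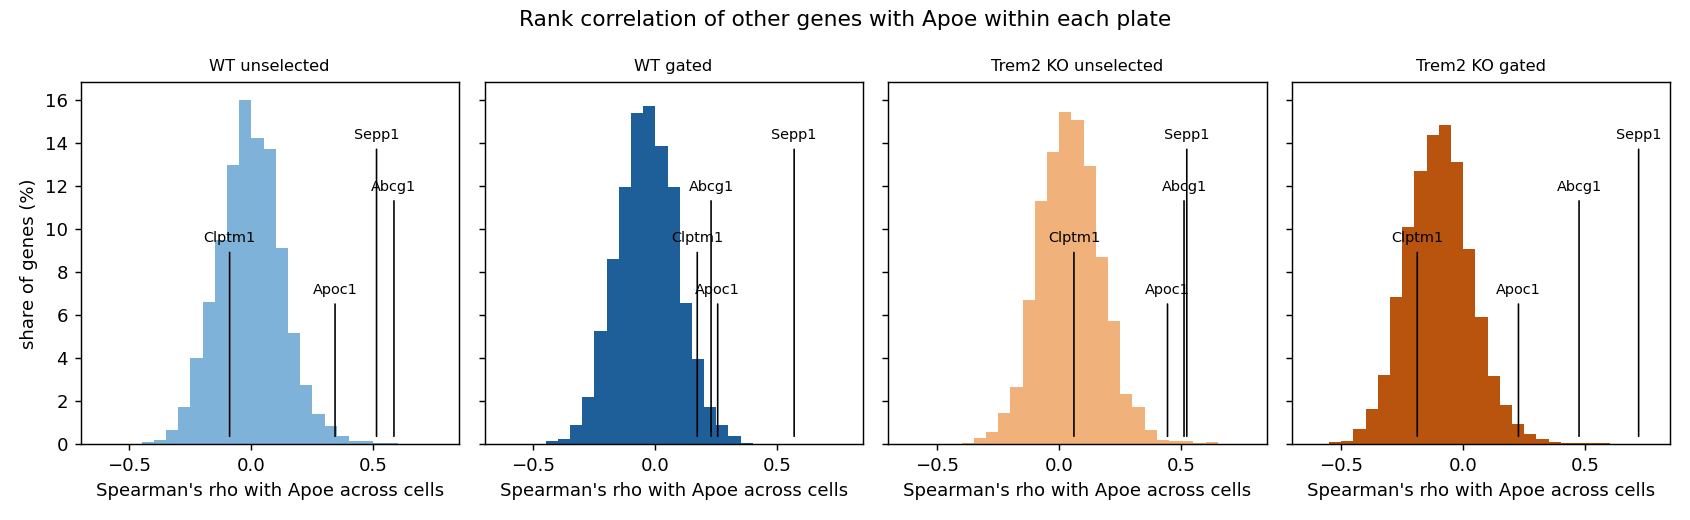
Share of genes (%) by their Spearman coefficient with Apoe across thinned cells of each plate, with 4 genes marked: Apoc1, the locus neighbour Clptm1, and the like genes Abcg1 and Sepp1. Apoc1 stands in the upper tail in each plate, whereas Clptm1 lies between -0.19 and 0.17.

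The median coefficients of Apoe with genes of activated microglia differed inside and outside the gate, but over partly different genes, and this was not tested. Of a list of 22 genes of disease-associated microglia (Apoe itself left out), those detected in enough cells had a median coefficient with Apoe of 0.32 over 12 genes in wild-type unselected and 0.44 over 13 genes in knockout unselected cells. In gated cells the median was 0.08 and -0.03, each over 20 genes. Genes detected too rarely in unselected cells entered the gated medians only, so the medians do not show how the same genes changed. Genes that entered in every plate went different ways. Tyrobp was at 0.33, 0.34, 0.31 and 0.40, Igf1 at 0.30, 0.33, 0.44 and -0.07, and Ctsl at 0.57, 0.14, 0.60 and 0.00045. Lpl, the lipase that apolipoprotein C2 activates, went from 0.25 and 0.19 in unselected wild-type and knockout cells to -0.17 and -0.46 in gated cells. Lpl was picked here after its values were seen, and the genes that enter the medians differ between plates. With detected genes taken out by rank, Lpl was at 0.25, -0.15, 0.11 and -0.36. For the 17 homeostatic genes (16 detected in knockout gated cells) the medians were -0.09, -0.13, -0.05 and -0.07.

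Other genes of lipoprotein handling are given by role, with the count at least 2-fold apart. Of 16 measured receptors and uptake factors for apolipoproteins, 5 were higher and 0 lower in wild-type gated cells (median log2 0.69) and 2 higher and 2 lower in knockout gated cells (median 0.09). That is 31.2% higher in wild type, beside 15.2% of all measured genes, and 12.5% in knockout, beside 12.4%. The shares lower were 0% and 12.5%, beside 19.9% and 22%. Cd36, a scavenger receptor for lipids, was at 2.41, 74.2, 0 and 23.01 CPM, and Sorl1, a sorting receptor that binds ApoE, was at 1.62, 39.0, 0.11 and 16.6 CPM. Cd36 and Sorl1 were thus higher in gated cells of both genotypes. Apobr, a receptor for apolipoprotein B48, was at 9.65, 23.8, 28.4 and 4.54 CPM, higher with the gate in wild type and lower with it in knockout, a difference that was not tested. Vldlr, another receptor of ApoE particles, was seen only in wild-type gated cells, at 7.59 CPM. Cd36, Sorl1 and Vldlr reached 5 CPM in gated cells alone, so the rule for measured genes favoured their count as higher.

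Of 15 genes of lipidation and cholesterol efflux, 4 were higher and 0 lower in wild-type gated cells (median log2 0.45), and 6 were higher and 3 lower in knockout gated cells (median 0.73). The shares higher were 26.7% and 40%, beside 15.2% and 12.4% of all measured genes. The shares lower were 0% and 20%, beside 19.9% and 22%. Pltp, a phospholipid transfer protein, was at 0.38, 31.6, 0.035 and 39.5 CPM, and Nceh1, which frees stored cholesterol, was at 41.3, 152, 31.5 and 122 CPM. Abca7, a lipid exporter, was at 20.5, 13.2, 7.64 and 34.05 CPM. Ch25h, which makes 25-hydroxycholesterol, was at 0 in 3 groups and at 7.31 CPM in knockout gated cells. Ch25h was thus measured only through the group where it counted as higher, and Pltp only through the gated groups.

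Of 7 measured genes around lipoprotein lipase, 3 were higher and 1 lower in the gated cells of each genotype (medians 0.34 and 0.86). With 7 genes, the share higher is 42.9%, beside 15.2% and 12.4% of all measured genes, and the share lower is 14.3%, beside 19.9% and 22%. Lpl was at 392, 1238, 532 and 1416 CPM, so the enzyme and its cofactor Apoc2 were both higher in gated cells. Fabp5, a carrier of fatty acids, was at 16.9, 101, 20.9 and 407 CPM, and Plin2, which coats lipid droplets, at 199.6, 654, 380.5 and 949 CPM. Lipe, a lipase that acts inside the cell, was lower, at 73.9, 23.1, 36.8 and 12.8 CPM.

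Of 11 measured targets of liver X receptors, 4 were higher and 0 lower in wild-type gated cells (median log2 0.91). In knockout gated cells 3 were higher and 0 lower (median 0.20). The shares higher were 36.4% and 27.3%, beside 15.2% and 12.4% of all measured genes, of which 19.9% and 22% were lower. Abcg1 was at 320.0, 799, 433 and 506 CPM, and Smpdl3a, a phosphodiesterase, was at 3.798, 60.3, 16.2 and 99.4 CPM. Pltp and Lpl belong to this list as well, and Pltp was measured only through the gated groups. Of 17 transcription factors with a part in lipid or macrophage gene control, 1 was higher and 1 lower in wild-type gated cells (median 0.22). In knockout gated cells 5 were higher and 1 lower (median 0.19). The shares higher were 5.88% and 29.4%, below the share of all measured genes in wild type and above it in knockout. The share lower was 5.88% in each genotype. None of these lists was tested against other genes. Cebpa was at 16.04, 30.3, 10.4 and 59.1 CPM and Rxra, the partner of the liver X receptors, at 10.3, 21.0, 4.36 and 24.5 CPM. Bhlhe40 was at 0, 2.75, 0 and 22.1 CPM and Pparg at 0, 0.95, 0 and 6.56 CPM. Both reached 5 CPM in knockout gated cells alone, a group where they counted as higher.

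Of 17 other genes listed by name as apolipoproteins only 4 were measured, each low: Clu was at 22.2, 34.2, 5.96 and 1.23 CPM and Apool at 16.6, 23.3, 41.1 and 24.4 CPM. Apob was at 0, 3.44, 12.04 and 0 CPM, and Apoo at 5.57, 2.55, 4.38 and 3.03 CPM. Among the measured genes of that list and the cluster on chromosome 7, the cluster therefore held nearly all of the counts.

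Border-associated macrophages sit along vessels and in the meninges and can make Apoe, and their markers moved with the gate. Of their 10 markers, 9 were at least 2-fold higher in gated cells of either genotype, beside 15.2% and 12.4% of all measured genes. In each unselected group 2 of the 10 reached 5 CPM, against 10 in each gated group. The rule for measured genes thus favoured this count. Summed levels were 815, 1996, 861 and 1822 CPM, of which Stab1 or Mrc1 gave the largest part in each group. Some markers rested largely on 1 cell. In knockout gated cells the top cell held 100% of Cd163 and Cd209f counts and 85.7% of Lyve1 counts. For Ms4a7 the top cell held 24.7% in wild-type gated and 20.0% in knockout gated cells. F13a1, Siglec1 and Cd209f were at 0 in both unselected groups. Cells with at least 3 of the 10 markers numbered 2, 33, 5 and 38. Without them, Apoe was at 10998, 28406, 10528 and 24841 CPM, and its gate difference was 1.37 in wild type and 1.24 in knockout on the log2 scale. Apoc1 was then at 9.88, 74.6, 8.37 and 52.7 CPM and Apoc2 at 1.46, 11.3, 0 and 17.3 CPM. Apoc2 in wild-type gated cells thus dropped to a gate difference of 2.32, and the Apoe and Apoc1 coefficient in the 38 knockout gated cells left was -0.09.

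Some of these markers were not rare. In thinned cells Stab1 was found in 75.6% to 100% and Mrc1 in 52.2% to 78.9% of each group, and Ms4a7 in 22.2% and 39.5% of wild-type and knockout gated cells. With at least 3 of the other 7 markers required, a rule set after the data were seen, 0, 9, 0 and 4 cells were left out. The Apoe gate difference was then 1.48 in wild type and 1.43 in knockout, and the coefficient in 72 knockout gated cells was 0.23. Astrocytes are the other main source of Apoe in brain. Their 10 markers summed to 41.7, 85.6, 51.2 and 47.9 CPM, and 1, 8, 6 and 9 of the 10 had counts. Slc1a3, the largest part in 3 groups, was at 41.7, 41.01, 32.2 and 14.9 CPM. In wild type others were at 0 in unselected cells and had counts in gated cells, among them Aldoc at 18.8, Ndrg2 at 12.5, Aldh1l1 at 6.98 and Atp1b2 at 4.45 CPM. Gfap and Fgfr3 were at 0 in wild-type gated cells. Of the 5 astrocyte markers that were measured, 3 were at least 2-fold higher in gated cells of each genotype, and 1 was lower in knockout. Of all measured genes, 15.2% and 12.4% were higher, and 22% lower in knockout. Aldoc, Aldh1l1 and Gfap each reached 5 CPM in 1 gated group alone, so the rule for measured genes favoured their count. The higher markers rested on few cells. In wild-type gated cells Aldh1l1, Aldoc and Ndrg2 were found in 2.22%, 3.33% and 6.67% of thinned cells. The top cell held 81.3%, 61.7% and 41.5% of their counts. In knockout gated cells Aldh1l1, Aldoc and Gfap were found in 1.32%, 5.26% and 3.95%, with 100%, 63.9% and 34.4% in the top cell. Monocyte markers summed to 1.54, 1.40, 6.26 and 10.2 CPM, with Ly6c2 and Ccr2 at 0 in all 4 groups. Fn1, the only monocyte marker that was measured, was at 0, 0.19, 0 and 9.98 CPM, higher with the gate in knockout. Fn1 was measured only through the knockout gated group. The part of free astrocyte RNA in the Apoe counts was not tested.

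In cells that failed the quality criteria but had at least 10000 gene counts, the median of Apoe was 10874 CPM in 9 wild-type unselected and 41406 CPM in 2 wild-type gated cells. The 3 knockout unselected cells of this kind had a median of 5653 CPM and the 7 knockout gated ones 58346 CPM. These cells show the same order of gated over unselected levels in each genotype and entered no value above.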

How the data were processed

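The values are raw read counts, deposited by the authors as 1 table with a column for each cell. The submitters' processing notes name STAR 2.5.3a, HTSeq, Picard and Trim Galore 0.4.3, on mm10. Which annotation was counted, and whether by strand, was not given in the sources used here. Multimapped or overlapping reads may therefore have been dropped, which bears on Apoc2 and Apoc4. Groups come from the genotype and gate labels. The members, lists and rules were chosen with earlier results of these data known, and 1 alternative was added after the values were seen.

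Counts were summed per group over passing cells and divided by summed gene counts without the 92 spike-in RNAs (CPM). Intervals are exact Poisson for levels, conditional binomial for ratios and Clopper-Pearson for shares. Differences are log2 ratios of CPM + 1, which understate low genes. Measured genes had at least 5 CPM in any group. A gene could thus be measured only through the group where it is high. Cells were thinned to 100000 gene counts (seed 1), a depth that all passing cells exceeded. Wells were sorted to hold 1 cell, and doublets were not called. No model was fitted: edgeR 4.0.16 and DESeq2 1.42.0 served only for scaling factors. Python 3.11.15, numpy 2.4.6, scipy 1.17.1 and R 4.3.3 were used, and the calculations were tested on simulated data. Named genes are the 3 members, measured neighbours, up to 4 genes per list with the largest gate difference, and the 5 genes most like each member. Lists hold 215 symbols, without 1 receptor gene that is not reported here, all matched, 3 of them by an older symbol.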

Additional observations from a re-analysis of the deposited data

How the results depend on the processing

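Across 14 alternatives, the gate differences of Apoe and Apoc1 stayed at least 2-fold, from 1.37 to 1.93 and 2.01 to 4.196 on the log2 scale in wild type and from 1.24 to 2.77 and 2.13 to 4.44 in knockout. Apoc2 was at 0 by the median cell in both genotypes, which left 2 of 3 genes, and was at least 2-fold higher in the other 13. For the genotype in unselected cells, the number of genes at least 2-fold apart was 1, and 0 by the median cell, without the cell with most counts of each gene, and with 5 CPM added in place of 1. It was 0 in gated cells under all 14. Apoe between genotypes ran from -0.50 to 0.03 in unselected and from -0.19 to 0.35 in gated cells, where -0.50 and 0.35 came from spike-in scaling. Apoc1 between genotypes ran from -0.66 to 0.16 in unselected and from -0.49 to 0.37 in gated cells. Of these, -0.66 and 0.37 came from spike-in scaling, and -0.49 from leaving out cells with border-associated macrophage markers. Requiring 10 thinned counts gave lower shares of cells for Apoc1 and Apoc2. No paired analysis was possible because each group is 1 plate. Without cells with border-associated macrophage markers, the coefficient of Apoe with Apoc1 in knockout gated cells went from 0.23 to -0.09. Apoc2 rested on 55 and 0 counts in unselected cells.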
